A study of Mus musculus with 6 samples.

Results

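Heat shock proteins and chaperonins were followed across 6 Affymetrix arrays of mouse cortex RNA. Members were all probe sets whose single annotated gene symbol begins with Hspa, Hspb, Hspd, Hspe or Hsph and a digit, with Hsp90, with Dnaja, Dnajb or Dnajc and a digit, or with Cct2 to Cct8. The rule used names only and no measured value. It found 195 of 45037 probe sets other than controls, which stand for 79 of the 18193 genes with a probe set of a single symbol. Tcp1, the remaining gene of the Cct complex, carries another name and is described with the partner genes.

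The TRAP group held 3 samples of ribosome-bound RNA from cortex of BAC transgenic mice of the S100a10 line ES691, which carry a tag on ribosomes of the cells where the S100a10 driver is active. TRAP, translating ribosome affinity purification, pulls down those ribosomes with the mRNA on them. The unbound group held 3 samples of the flow-through RNA of whole cortex lysates, which the sample titles call input. Both groups came from animals backcrossed from FVB to C57BL/6 for 3 to 5 generations, had no treatment, and entered amplification with 15 ng of RNA. The labels name biological replicates 1, 2 and 3 but no age, sex or number of animals. The p-values therefore reflect how much these samples varied, part of which may be technical. The series text states that the line labels some non-neuronal cells as well as pyramidal cells, and the probe set list that it recommends was not used here.

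Chaperones bind unfolded or partly folded proteins and keep them from clumping. Small heat shock proteins hold such proteins without using ATP, the Hsp70 proteins bind and release them in an ATP cycle that J-domain (Dnaj) proteins start and Hsp110 proteins reset, and Hsp90 acts later on selected clients. The ring-shaped chaperonins Hsp60 with Hsp10 in mitochondria and Cct in the cytosol enclose a protein while it folds, and neurons use some J proteins at the synapse, among them Dnajc5 on synaptic vesicles and Dnajc6 in clathrin uncoating.

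Of the 195 member probe sets, 144 reached a mean intensity of 50 in at least 1 group and were tested, and 51 did not. By limma with Benjamini-Hochberg adjustment at 0.05 over all 22591 probe sets tested, 19 members were higher and 54 lower in TRAP RNA, and 71 were not called. This is 50.7% of the tested members, against 68.3% of all probe sets tested. The higher calls were 13.2% of members against 20.6% of all, and the lower calls 37.5% against 47.7%. The median log2 fold change (TRAP over unbound) was -0.14 for the members and -0.25 for all probe sets tested, and 66 of the 144 members, 45.8%, lay within 1.2-fold of equality against 29.0% of all. Calls with a change of 2-fold or more numbered 8 higher and 10 lower, 5.56% and 6.94% of the members, against 6.17% and 16.6% of all. The TRAP values lay above all unbound values in 21 member probe sets and below them in 64, and the groups overlapped in 59, where the background was 23.2%, 51.8% and 25%.

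How arrays are scaled decides the direction of the small differences. Median intensity over all probe sets was 31.3 to 31.6 on the TRAP arrays and 42.3 to 43.0 on the unbound arrays. Centring each array on that median shifted each log2 fold change by 0.44 and gave 79 members higher and 16 lower, against 43.9% and 25.3% of all probe sets. Centring on the median of the tested probe sets, chosen after seeing the data, gave 50 and 22 (33.9% and 33.1% of all), and quantile normalisation gave 35 and 33 (31.4% and 34.7%). With the replicate number as a block there were 20 and 55 (21.9% and 49.5%). Counted by gene, with each gene read from its probe set of highest mean, 66 of 79 genes were tested, 12 were higher (23.1% of all 12066 genes) and 26 lower (45.6%), so 57.6% were called against 68.8% of all genes. All 12 higher calls held under the 4 scalings, which include the deposited one. Of these 12 genes, 2 were tested only because they reached 50 in TRAP RNA, Hspb2 and Hspa12b. For each of the 12 the deposited value was the lowest of the 4, so these calls could hardly be lost. Lower calls met the opposite shift, and 7 of the 26 held: Hspa4l, Dnajb14, Dnajc1, Dnajc13, Dnajc16, Dnajc18 and Dnajc27. For the other 19 lower genes the values below describe the deposited scale. Centring on array medians changed the sign of 30 of the 66 tested genes, all of them below 0 on the deposited scale, and 7 of these went from called lower to called higher: Cct3, Cct7, Dnaja2, Dnajb4, Dnajc2, Dnajc11 and Hsp90aa1. The sources do not say if TRAP and unbound arrays were normalised together, and exact repeats of a value, described at the end, occurred within a group and never between groups. If they were normalised apart, the deposited scale would not set the groups on one level, so the direction of small differences is uncertain.

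**Figure D1:**
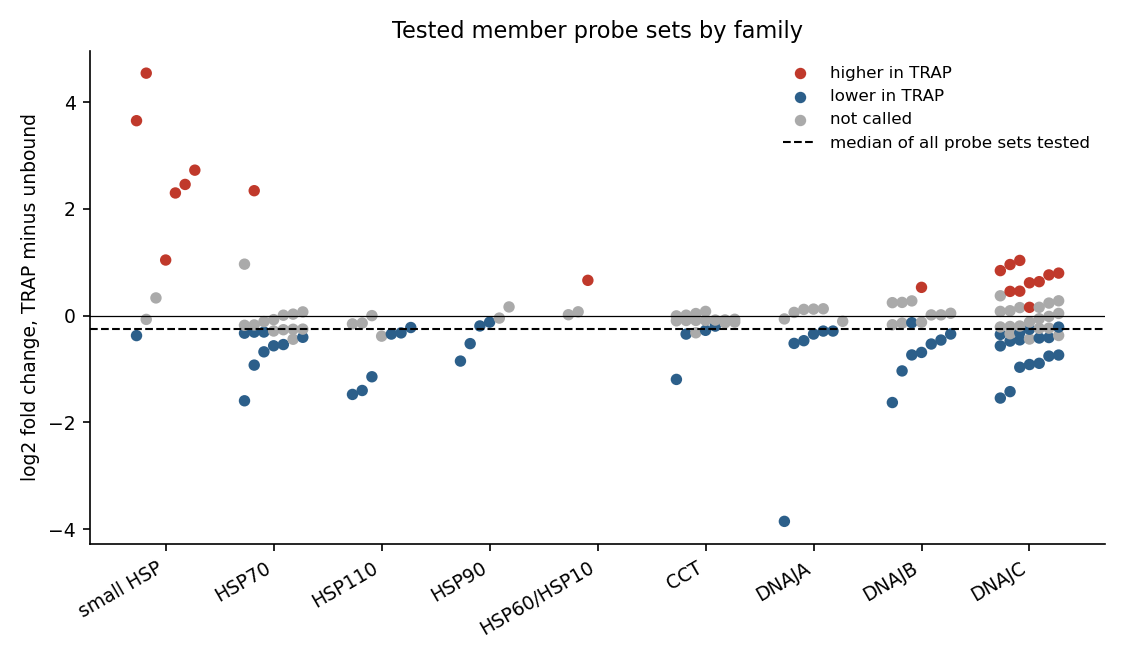
Log2 fold change, TRAP minus unbound, of the 144 tested member probe sets (points) in each chaperone family, with called probe sets coloured and the median of all tested probe sets (-0.25) as a dashed line. The small heat shock proteins spread from -0.37 to 4.54, while 14 of the 18 tested Cct probe sets lie within 1.2-fold of 0.

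Among the small heat shock proteins, 4 of 6 tested genes rose in TRAP RNA and 0 fell by limma. This is 66.7% and 0%, against 23.1% and 45.6% of all genes. The counts were also 4 and 0 at an unadjusted p under 0.05 and with the block. The median log2 fold change was 1.67 against -0.21 for all genes. One of the 4, Hspb2, was tested only because it reached 50 in TRAP RNA, and among the 5 genes at 50 or more in both groups 3 were higher and the median was 1.04. The others of the family, Hspb7 and Hspb9, lay under 50 in both groups. Hspb1, the mouse Hsp25 that binds actin filaments and holds unfolded proteins, read 1583, 1372 and 1236 in the TRAP samples and 111, 111 and 111 in the unbound samples, on the _a_at probe set. Its log2 fold change was 3.65 (SE 0.10, 12.6-fold, adjusted p = 5.7e-06). A second probe set, of the type marked _x_at that may cross-hybridise, gave 1582, 1368 and 1249 in TRAP RNA against 59.8, 59.8 and 59.8 in unbound RNA. The 3 unbound values of each are identical, so their spread is no measure of error.

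Hspb8, which works with Bag3 to send damaged proteins to autophagy, was 1799, 1796 and 1538 in TRAP RNA against 372, 289.7 and 388 in unbound RNA (4.92-fold, log2 2.30, SE 0.14, adjusted p = 9.7e-05). The lowest TRAP sample lay well above the highest unbound one. The next probe set of Hspb8 read 118, 105 and 109 against 20.1, 20.1 and 20.1. That probe set was tested only because it reached 50 in TRAP RNA, which favours a higher call. Its unbound values are identical, so their spread is no measure of error. An _x_at probe set went the other way at 114, 120.5 and 114 against 158, 135 and 158 (log2 -0.37, adjusted p = 0.0093).

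Hspb2 and Hspb3, partners of each other in muscle, were both higher. Hspb2 read 202, 195 and 147 in TRAP RNA and 27.1, 27.1 and 27.1 in unbound RNA, where it did not reach 50. With 50 as the floor it was at least 3.59-fold higher (measured log2 2.73, adjusted p = 4.6e-05). Hspb3 read 189.6, 176 and 189.6 against 95.8, 84.9 and 89.1 (2.06-fold, adjusted p = 8.5e-05), and its groups did not overlap. Hspb6, known as Hsp20, read 178, 165 and 163 against 170.2, 180.4 and 180.4 and was not called. Hspb11, better known as the ciliary transport protein Ift25, read 1171, 1171 and 1171 against 1277, 764 and 826, with a log2 fold change of 0.33 and adjusted p = 0.21. Without unbound sample 1 it was 0.56 and called, and under each of the 3 other scalings both Hspb6 and Hspb11 were called higher.

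**Figure D2:**
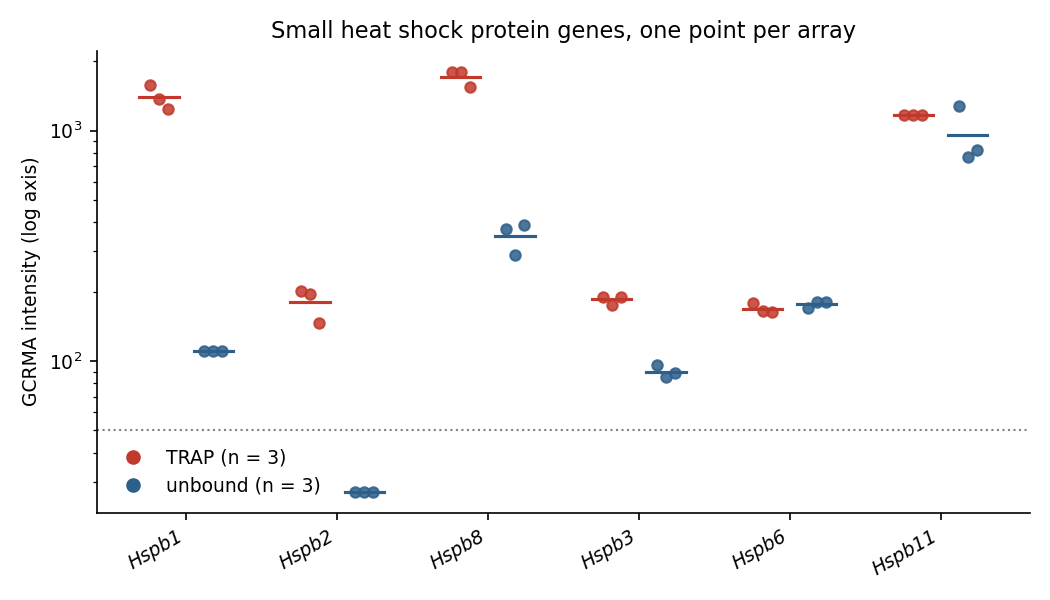
GCRMA intensity (log axis) of the 6 tested small heat shock protein genes in each TRAP and unbound sample (points, 3 per group), with bars at the group means and the limit of 50 dotted. The groups are apart for Hspb1, Hspb2, Hspb8 and Hspb3 and overlap for Hspb6 and Hspb11.

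Cryab, alpha B-crystallin, belongs to the same protein family under another name and is the gene within whose annotated span RefSeq places Hspb2. It read 9993, 10020.5 and 9791 in TRAP RNA against 11580.4, 8605 and 10169 in unbound RNA and was not called (log2 -0.02, adjusted p = 0.91). The Hspb2 difference was thus not seen at the Cryab probe set.

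Markers of cell types also differed between the groups, in both directions. All 10 tested meningeal fibroblast markers of 11 listed were higher in TRAP RNA, with summed intensities of 38198 to 42675 against 1562 to 1860 in unbound RNA, and the other marker, Col1a1, lay under 50. Of 10 pericyte and smooth muscle markers, 5 were higher and Rgs5 lower, sums 5441 to 6798 against 1972 to 2319, while the smooth muscle markers Cnn1 and Myh11 and the pericyte markers Kcnj8 and Abcc9 did not reach 50. All 7 tested oligodendrocyte markers were lower, sums 8346 to 13715 against 51579 to 56994. Of 6 microglia markers 5 were lower and 0 higher, sums 401 to 572 against 1201 to 1462, and of 6 astrocyte markers 3 were lower and 1 higher, sums 7291 to 10453 against 8363 to 13272. GABAergic interneuron markers were lower in 5 of 6, sums 11732 to 14261 against 30576 to 31324, with Sst not called. The part of these cells in the values of the members, higher or lower, was not tested. In bulk RNA of this kind, fewer cells of a type and less RNA per cell cannot be told apart.

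Promoter windows are printed for the 3 raised small heat shock protein genes that have an entry in the RefSeq promoter table, to show where they hold the heat shock element core. The windows run from 250 bases before to 50 after the gene start, build GRCm38.p6, with the core GAANNTTC in capitals (it reads the same on both strands). Hspb1 lies at chr5:135887669-135887968 on the plus strand, Hspb8 at chr5:116422815-116423114 on the minus strand and Hspb3 at chr13:113663627-113663926 on the minus strand.
Hspb1: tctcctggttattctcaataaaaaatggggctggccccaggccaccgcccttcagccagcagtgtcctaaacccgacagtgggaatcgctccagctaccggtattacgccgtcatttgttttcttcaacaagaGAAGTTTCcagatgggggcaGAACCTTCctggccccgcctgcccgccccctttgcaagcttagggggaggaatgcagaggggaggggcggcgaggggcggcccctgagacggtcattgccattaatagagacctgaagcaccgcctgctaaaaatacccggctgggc
Hspb8: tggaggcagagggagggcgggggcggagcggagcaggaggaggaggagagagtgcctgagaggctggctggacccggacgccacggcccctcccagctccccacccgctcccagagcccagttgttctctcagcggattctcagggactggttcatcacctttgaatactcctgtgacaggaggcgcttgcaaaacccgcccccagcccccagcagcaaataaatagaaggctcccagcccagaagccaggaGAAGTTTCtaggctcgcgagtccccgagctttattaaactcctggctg
Hspb3: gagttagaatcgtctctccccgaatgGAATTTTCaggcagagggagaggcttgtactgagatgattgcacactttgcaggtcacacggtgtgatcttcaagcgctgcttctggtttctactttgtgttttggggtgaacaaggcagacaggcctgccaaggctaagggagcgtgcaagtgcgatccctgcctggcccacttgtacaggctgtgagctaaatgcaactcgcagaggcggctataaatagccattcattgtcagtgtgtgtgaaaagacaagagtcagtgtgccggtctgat
The core stood in all 3 of these windows, and Hspb1 holds it 2 times. Of 65 member genes with an entry, 16 held it (24.6%), against 9.04% of the windows of all 27025 genes. Of the 14 tested genes with it, 4 were higher (28.6%), 3 lower (21.4%) and 7 not called, beside 18.2% and 39.4% of all 66 tested member genes, a difference that was not tested. Hspb6, which also holds it, was not called. A match of these letters is a description of the window and not evidence of binding.

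The cytosolic Hsp70 genes differed little. Hspa8, the constitutive Hsc70 and the member of highest intensity, read 33881, 34875 and 34427 in TRAP RNA and 35096, 35610.5 and 38069.9 in unbound RNA, all TRAP values below the unbound ones but not called (log2 -0.08, adjusted p = 0.15). The stress-induced pair Hspa1a and Hspa1b are near-identical copies whose probes may not tell them apart. Hspa1b read 2543, 2645 and 2757 against 3262, 2596 and 3989 and Hspa1a 464, 473 and 472 against 490.2, 444 and 694, with overlapping groups and adjusted p of 0.18 and 0.4. In both genes the highest of the 6 values was unbound sample 3, and without unbound sample 2 Hspa1b was called lower at -0.45. The RefSeq window of Hspa1b (chr17:34959189-34959488, minus strand, core in capitals) shows the same element in a gene that was not called.
Hspa1b: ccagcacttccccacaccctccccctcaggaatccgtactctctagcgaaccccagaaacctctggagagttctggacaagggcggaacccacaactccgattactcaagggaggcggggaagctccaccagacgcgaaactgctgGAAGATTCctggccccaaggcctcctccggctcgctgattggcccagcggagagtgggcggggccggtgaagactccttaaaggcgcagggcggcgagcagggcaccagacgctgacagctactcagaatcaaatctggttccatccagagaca
Hspa2, best known from the testis, was lower at 553, 661 and 565 against 795, 735 and 701 (log2 -0.33, adjusted p = 0.023), a call that was lost without any one of TRAP samples 1 and 3 and unbound samples 1 and 2 (adjusted p 0.064 to 0.075).

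Hspa12a and Hspa12b are distant relatives of Hsp70 and went opposite ways. Hspa12a, a gene of brain neurons, was lower at 1222, 1146 and 1212 against 1713, 1646 and 1952 (log2 -0.57, SE 0.07, adjusted p = 0.0018), and not called after centring on array medians. Hspa12b, which is known from endothelial cells, read 91.2, 58.0 and 33.0 in TRAP RNA against 11.03, 11.03 and 11.03 in unbound RNA (log2 2.34, SE 0.38, adjusted p = 0.0039). Its TRAP values differ by 2.77-fold among themselves and 1 of them lies under 50. It was tested only because its mean reached 50 in TRAP RNA. With values under 50 raised to 50 it was 1.28-fold higher and no longer called (adjusted p = 0.24), and without TRAP sample 1 it was not tested. The endothelial markers Pecam1, Tek, Flt1 and Cdh5 lay under 50 in both groups, Cldn5 and Slco1c1 were lower and Itm2a higher. Their summed levels were 4085 to 4447 against 805 to 906, nearly all of it Itm2a in TRAP RNA, and the part of endothelial cells was not tested.

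Of the 3 Hsp110 genes, the nucleotide exchange factors of Hsp70, Hspa4l stood out. It read 984, 1011 and 929 in TRAP RNA against 2644, 2921 and 2581 in unbound RNA, 2.78-fold lower (log2 -1.48, SE 0.06, adjusted p = 2.8e-05), and it passed the test against a 2-fold change with adjusted p = 0.0036. Among all tested member probe sets, 5 higher and 5 lower passed that test, against 3.82% and 9.49% of all probe sets. Its 5 tested probe sets all lay below 0 but ranged from -1.48 to -0.14. Hsph1, Hsp105, was 12256, 12229 and 12229 against 15613, 15132 and 15923 (log2 -0.35, adjusted p = 0.00032), which turned to 0.09 after centring on array medians. Hspa4 read 4533, 4929 and 4929 against 4903, 5216 and 4308 and was not called. Both Hsp90 genes were called lower on the deposited scale. Hsp90aa1, the stress-responsive cytosolic form, read 21235, 21235 and 21399.7 against 23394, 23072 and 23072, a log2 fold change of -0.12 (adjusted p = 0.006) that turned to 0.31 after centring on array medians and 0.14 after centring on tested probe sets. Hsp90ab1 was not analysed here.

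The chaperonins were nearly level between the groups. None of the 7 tested Cct genes was higher on the deposited scale and 2 were lower by limma. This is 0% and 28.6%, against 23.1% and 45.6% of all genes. With an unadjusted p under 0.05, 0 were higher and 3 lower, and the median log2 fold change was -0.12. After centring on array medians all 7 were called higher, from 0.16 to 0.52, and after quantile normalisation 0 were higher and 1 lower. Cct6a, the member of highest intensity in the family, read 22961, 22961 and 22961 in TRAP RNA and 23245, 22913 and 22980.1 in unbound RNA. Cct3 read 4436, 4820.2 and 4697 against 5596, 5605 and 5682 (log2 -0.28, adjusted p = 0.0023), and Cct7 10019, 9876 and 9076 against 10830.2, 11013 and 11330.2 (log2 -0.20, adjusted p = 0.017). The Cct7 call was lost with the replicate number as a block (adjusted p = 0.056) and without unbound sample 3 (0.057). Each of the 2 calls is from the brightest probe set. The 3 other tested probe sets of Cct3 lay at -0.32 to -0.09 and were not called (adjusted p 0.066 to 0.39). The other probe set of Cct7 was level (log2 0.01, adjusted p = 0.94). Cct2, Cct4, Cct5 and Cct8 were not called, with log2 fold changes of -0.08, 0.08, -0.12 and -0.13, and Cct6b and Cct8l1 did not reach 50.

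In mitochondria, Hspe1 and Hspd1 encode the lid and the ring of one chaperonin. Hspe1 (Hsp10) read 5242, 5270.4 and 4888 in TRAP RNA against 3399, 3146 and 3195 in unbound RNA, 1.58-fold higher (log2 0.66, SE 0.05, adjusted p = 0.00021). Hspd1 (Hsp60) read 6714, 6045 and 6373 against 6125, 5504 and 6619, with overlapping groups, and was not called (log2 0.07, adjusted p = 0.48). The difference between the pair was not itself tested. The Hspe1 value is from an _s_at probe set, a type that may read several transcripts, and its other probe set was level (95.6, 77.0 and 89.3 against 102, 78.8 and 78.8). The genes lie head to head, and the RefSeq window of Hspe1 (chr1:55087898-55088197, plus strand) shares 285 of its 300 bases with a window of Hspd1 on the other strand. Capitals in the window mark the heat shock element of 3 units, GAA, TTC and GAA set 2 bases apart, searched on both strands. Here matches on the 2 strands overlap each other and a match of the shorter core.
Hspe1: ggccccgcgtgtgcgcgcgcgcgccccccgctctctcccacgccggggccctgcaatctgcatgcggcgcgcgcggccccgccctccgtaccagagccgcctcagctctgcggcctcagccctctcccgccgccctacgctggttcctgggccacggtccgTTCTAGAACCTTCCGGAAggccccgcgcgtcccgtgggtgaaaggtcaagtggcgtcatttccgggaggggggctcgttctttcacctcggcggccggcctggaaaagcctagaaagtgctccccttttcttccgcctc
This longer element stood in 4 of the 65 member windows (Hspe1, Hspd1, Hsph1 and Dnajb6), 6.15% against 0.662% of all windows. In TRAP RNA these 4 genes were higher, not called, lower and not called in that order. The matches of Hspe1 lie in the stretch shared with Hspd1. The same site therefore counts for both genes, here and in the count of the shorter core. Hspa9, the mitochondrial Hsp70 called mortalin, read 5574, 6262 and 4942 against 6608, 7279.7 and 6829 (log2 -0.31, adjusted p = 0.039), lower on the deposited scale and 0.13 after centring on array medians. That call was lost on leaving out any sample but TRAP sample 2 (adjusted p 0.066 to 0.11).

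Several chaperones of the endoplasmic reticulum (ER) differed between samples of one group as well as between the groups. Hspa5, the ER Hsp70 known as BiP, read 5062, 7689.5 and 8017 in TRAP samples 1, 2 and 3 and 5991, 7481 and 10015 in the unbound samples of the same numbers. Its groups overlapped and it was not called (log2 -0.17, SE 0.27, adjusted p = 0.59), while the highest value was 1.58 times the lowest within TRAP and 1.67 times within unbound. Hsp90b1, the ER Hsp90 known as Grp94, read 6041, 7219.6 and 7632 against 8105, 10701 and 11432 (log2 -0.52, SE 0.17, adjusted p = 0.038). Dnajb11, a J protein that joins BiP in the lumen, read 515, 609 and 609 against 693, 881 and 944 (log2 -0.53, adjusted p = 0.023). Both calls were lost on leaving out any sample but unbound sample 1, with log2 fold changes between -0.59 and -0.43 for Hsp90b1 and between -0.57 and -0.44 for Dnajb11. With the replicate number as a block and all samples on the deposited scale, both were called lower (adjusted p = 0.0054 for Dnajb11). Hspa13, an ER-associated relative of Hsp70, was lower at 992, 1205 and 1348 against 1827, 1872 and 1932 (log2 -0.68, SE 0.12, adjusted p = 0.0052), and was not called after centring on array medians. Its other tested probe set pointed the other way with overlapping groups, at 188, 101 and 188 against 85.4, 51.9 and 108 (log2 0.96, adjusted p = 0.077, and called higher with the block at 0.0038).

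By their brightest probe sets, in each of these 4 genes, sample 1 was lowest and sample 3 highest or tied for highest in both groups. Dnajc3, the BiP co-chaperone p58IPK, had the same order at 607, 801 and 893 against 756, 862 and 1019. It was not called (adjusted p = 0.38), and was called lower with the replicate number as a block (0.048). Of its 3 other tested probe sets 1 was called higher, at 232, 329 and 342 against 175, 189 and 210.4. Among 8 member genes that act in the ER lumen or bring it a J domain, chosen after their values were seen, 6 had no tied values and 4 of those had this order in both groups. Of all genes without ties, 367 of 5963 did (6.15%), and of the 41 such members 4 did. Dnajb9, known as ERdj4, did not share it at 2776, 2752 and 3140.0 against 3972, 3259.8 and 3799.6 (log2 -0.35, adjusted p = 0.027, which was 0.075 to 0.086 without any one of TRAP samples 1 and 2 and unbound samples 1 and 3). Dnajc10, the ER reductase ERdj5, read 1016, 1426 and 1157 against 1421, 1572 and 1629 and was called lower with the block (adjusted p = 0.044, against 0.064 in the fit by group) or without TRAP sample 2 (0.013).

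Immediate early genes, which neurons switch on with activity and handling, also differed by sample number in both groups, in the opposite sense. Their summed intensity was 41040, 24134 and 22656 in TRAP samples 1, 2 and 3 and 34352, 19845 and 18588 in unbound samples 1, 2 and 3. Sample 1 was highest in both groups for 6 of the 8 genes, all but Fosb and Jun, and lowest in both for the 5 ER genes named. Ependymal and ciliated markers differed by sample number too. Their summed intensity was 580, 434 and 827 in TRAP samples 1, 2 and 3 and 462, 384 and 3188 in the unbound samples. Sample 3 was thus highest in both groups, but sample 2 and not sample 1 was lowest. Much of this came from Ttr, at 35.0, 36.4 and 174.5 against 159, 76.3 and 2886. Whether any of these patterns are linked was not tested.

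**Figure D3:**
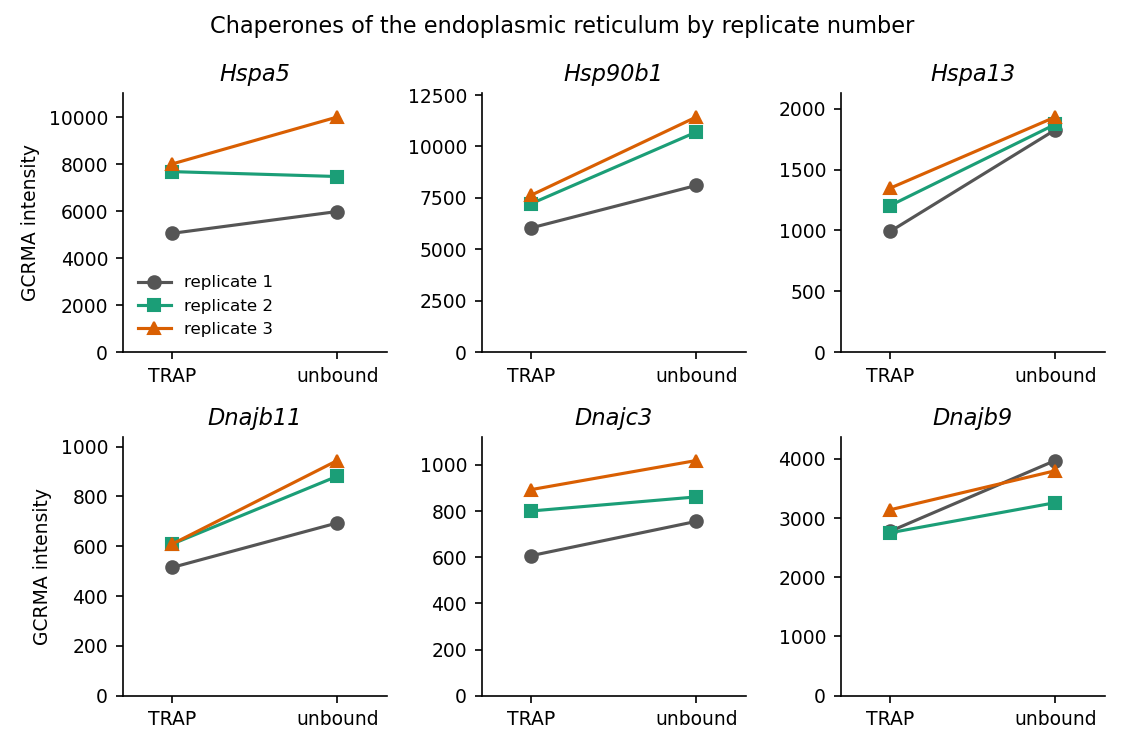
GCRMA intensity of 6 ER chaperone genes, with the TRAP and unbound sample of the same replicate number joined by a line (1 line per number, linear axis from 0). Sample 1 is lowest at both ends for all but Dnajb9, and for Hspa5 the lines differ more in height than between the groups.

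RefSeq windows of Hspa5 (chr2:34771840-34772139, plus strand) and Hsp90b1 (chr10:86705395-86705694, minus strand) are printed because these genes varied together. Capitals mark the ER stress element, CCAAT and CCACG set 9 bases apart, searched on both strands.
Hspa5: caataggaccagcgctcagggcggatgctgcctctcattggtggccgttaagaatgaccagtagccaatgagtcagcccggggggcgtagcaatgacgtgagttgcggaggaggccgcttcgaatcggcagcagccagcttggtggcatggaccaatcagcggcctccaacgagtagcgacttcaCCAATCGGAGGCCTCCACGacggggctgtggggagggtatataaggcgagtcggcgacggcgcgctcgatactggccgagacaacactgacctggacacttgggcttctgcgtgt
Hsp90b1: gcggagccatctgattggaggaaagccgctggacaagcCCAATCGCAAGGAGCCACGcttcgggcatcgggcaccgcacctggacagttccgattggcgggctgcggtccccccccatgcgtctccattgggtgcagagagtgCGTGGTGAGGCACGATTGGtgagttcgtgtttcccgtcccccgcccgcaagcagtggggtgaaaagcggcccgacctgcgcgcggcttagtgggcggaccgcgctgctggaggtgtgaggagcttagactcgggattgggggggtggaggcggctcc
The element stood in 3 of 65 member windows, those of Hspa5, Hsp90b1 and Dnajc3, 4.62% against 0.137% of all 27025. All 3 genes had the sample order described above, which is a description of these 6 arrays. Hspa5 and Hsp90b1 were printed because of how they varied, so the match of element and order is no separate support. A link of the element to the order was not tested.

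Among the Dnaja and Dnajb genes, 0 were higher and 7 of 13 tested were lower on the deposited scale by limma (0 and 8 at an unadjusted p under 0.05, 0 and 6 with the block). The 7 are 53.8% of those tested, near the 45.6% of all genes, and 1 of those 7, Dnajb14, was lower under all 4 scalings. Dnajb14, a J protein of the ER membrane, read 1162, 1248 and 945 in TRAP RNA against 2226, 2529 and 2099 in unbound RNA, 2.05-fold lower (log2 -1.04, SE 0.13, adjusted p = 0.0015). Its second probe set was also lower (494, 451 and 492 against 765, 949 and 634). Dnajb1, the Hsp40 that pairs with Hspa1a and Hspa8, read 6117, 5759 and 5466 against 8725, 7624 and 7500.3 (log2 -0.46, adjusted p = 0.0046). Its other probe set was level, at 356, 290.0 and 347 against 373, 283 and 329.9. Dnaja1 and Dnaja2, the abundant farnesylated J proteins of the cytosol, had log2 fold changes of -0.35 and -0.29 (adjusted p 0.0069 and 0.0011). These turned to 0.09 and 0.15 after centring on array medians. The 2 other probe sets of Dnaja1 were level and not called, at 0.06 and -0.06 (adjusted p 0.39 and 0.40). The 3 others of Dnaja2 were called lower. Dnajb4 was called at -0.13 and lost that call with the replicate block (adjusted p = 0.075) and on leaving out any sample but unbound sample 2 (0.058 to 0.10). Dnajb6, which holds back the clumping of polyglutamine proteins, read 12186, 12113 and 11968 against 12428, 11748 and 11748 and was not called. A dimmer probe set of Dnajb6 was called lower, at 396, 390 and 390 against 604, 662 and 698 (log2 -0.74, adjusted p = 0.00028). A further one was not called (log2 -0.14). Without 1 sample at a time the Dnajb genes called lower numbered 2 to 4 in place of 5, with 2 of them left without TRAP sample 1, TRAP sample 2 or unbound sample 3.

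The Dnajc genes share a J domain and little else. Of 23 tested, 6 were higher (26.1%) and 9 lower (39.1%), near the 23.1% and 45.6% of all genes, with a median log2 fold change of -0.24. Dnajc27, a Rab-like GTPase with a J domain, read 1028, 999 and 1006 in TRAP RNA against 2552, 2736 and 2861 in unbound RNA, 2.68-fold lower (log2 -1.42, SE 0.05, adjusted p = 1.4e-05, against a 2-fold change 0.0022). Its second probe set agreed in size at -1.55. Dnajc13, the endosomal sorting protein RME-8, read 432, 408 and 432 against 837, 790.3 and 861 (log2 -0.97, adjusted p = 4.3e-05). Dnajc16 read 408, 432 and 432 against 681, 1001 and 751 (log2 -0.92, adjusted p = 0.0043). In all 3 genes each TRAP value lay below each unbound value. Dnajc1 and Dnajc18, J proteins of the ER membrane, were lower by 1.86-fold and 1.67-fold.

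Dnajc15, a J protein of the inner mitochondrial membrane, was the highest of the raised Dnajc genes by fold. It read 2117, 2054 and 2117 in TRAP RNA against 1287, 891 and 935 in unbound RNA (2.05-fold, log2 1.03, SE 0.15, adjusted p = 0.0026). Dnajc24, which takes part in making the diphthamide residue of elongation factor eEF2, read 238, 238 and 222 against 139, 125 and 125, and its 2 probe sets gave 0.84 and 0.96. The others that rose were Dnajc17 (1.74-fold), Dnajc4 (1.7-fold), Dnajc12 (1.53-fold), which binds the aromatic amino acid hydroxylases, and the histone chaperone Dnajc9 (1.37-fold). All 6 kept their call under the 4 scalings, of which the deposited one gave each its lowest value. Of the 6, 0 passed limma's test against a 2-fold change, also at an unadjusted p under 0.05. The Dnajc12 call was lost without TRAP sample 1, TRAP sample 3 or unbound sample 3 (adjusted p 0.058 to 0.060). Dnajc30 was not called at 0.23 (adjusted p = 0.067) and was called higher with the block (0.012) and without TRAP sample 2 (0.018).

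Of the synaptic J proteins, Dnajc6, auxilin, read 4378, 4994 and 4047 in TRAP RNA against 6323, 6231 and 6063 in unbound RNA (log2 -0.48, SE 0.08, adjusted p = 0.0051), and after centring on array medians the value was -0.04 and not called. Its other tested probe set, of low intensity, was not called, at 63.9, 63.9 and 63.9 against 42.8, 69.6 and 40.6 (log2 0.37). Dnajc5, the cysteine string protein of synaptic vesicles, read 8377, 8245 and 8245 against 8389.9, 8553 and 8959.6 and was not called (log2 -0.06, adjusted p = 0.18). Of its 4 other probe sets 3 were called lower, at -0.45 to -0.22.

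**Figure D4:**
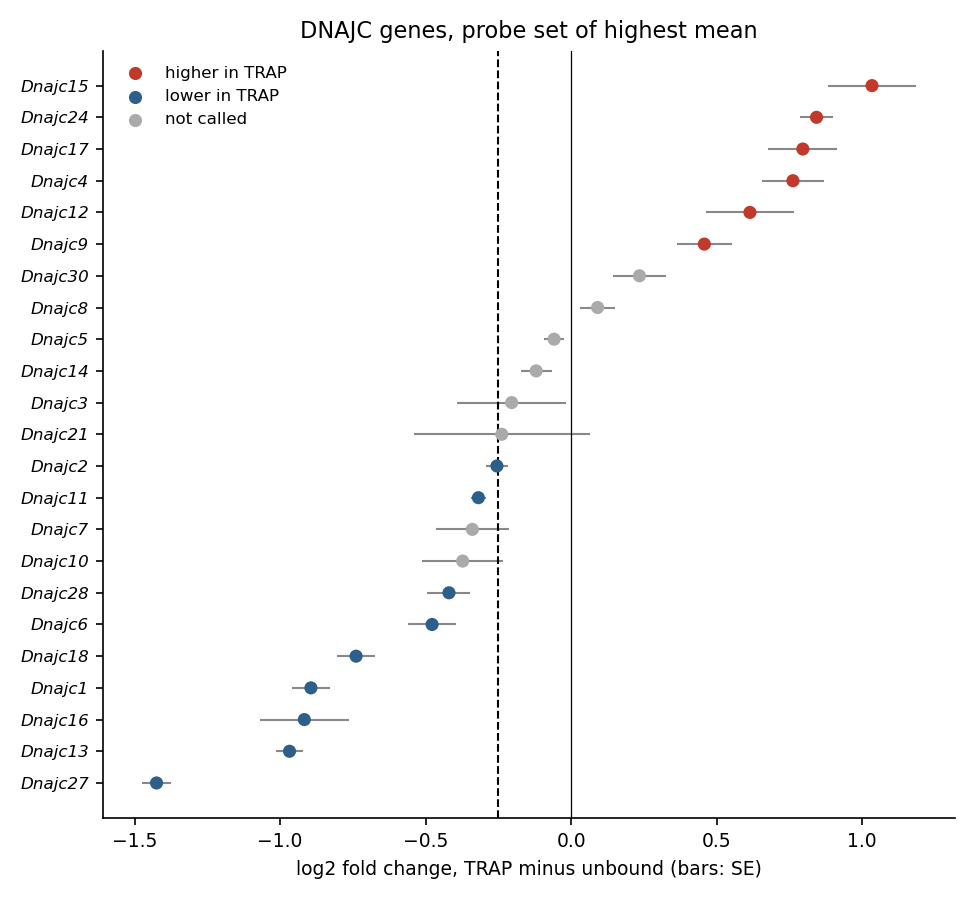
Log2 fold change, TRAP minus unbound, of the 23 tested Dnajc genes by their probe set of highest mean, with SE bars, calls in colour and the median of all tested probe sets (-0.25) as a dashed line. The genes run from -1.42 (Dnajc27) to 1.03 (Dnajc15), with 6 called above 0 and 9 called below it.

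Probe sets of 1 gene did not always give the same answer. Of 43 member genes with several tested probe sets, 25 had log2 fold changes within 0.5 of each other and 7 spread over more than 1, which was 6 with values under 50 raised to 50. In 17 of the 43 the probe sets lay on both sides of 0. Hspb8, described above, ran from -0.37 to 2.30 with that floor, the widest of the 43. Dnaja2 spread by 3.57 as measured and by 1.31 with the floor. Its probe set near background in TRAP RNA read 10.2, 10.5 and 10.7 against 205, 129 and 130.1 in unbound RNA, while its brightest gave a 1.22-fold difference. Hspa8 had such a probe set at 26.8, 26.8 and 26.8 against 140.2, 45.7 and 83.4, Dnajb4 one at 40.3, 56.0 and 34.5 against 136.6, 136.6 and 123.2, and Cct4 one at 109, 130.0 and 107 against 239, 372 and 205. In each of these 4 genes the dim probe set was called lower while the brightest differed by 1.22-fold or less, and with the floor the Hspa8 call was lost (adjusted p = 0.16). The dim probe sets of Dnaja2, Hspa8 and Dnajb4 were tested only because they reached 50 in unbound RNA, which favours a lower call. That of Cct4 reached 50 in both groups. Amplification of this kind favours the end of the transcript near the poly(A) tail, and the position of the probes was not examined. Over all 43 genes, 38 of the 78 other probe sets (48.7%) lay below the brightest one of their gene, as did 50.4% of 8221 in all genes. Opposite calls occurred in Hspb8 and Dnajc2.

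**Figure D5:**
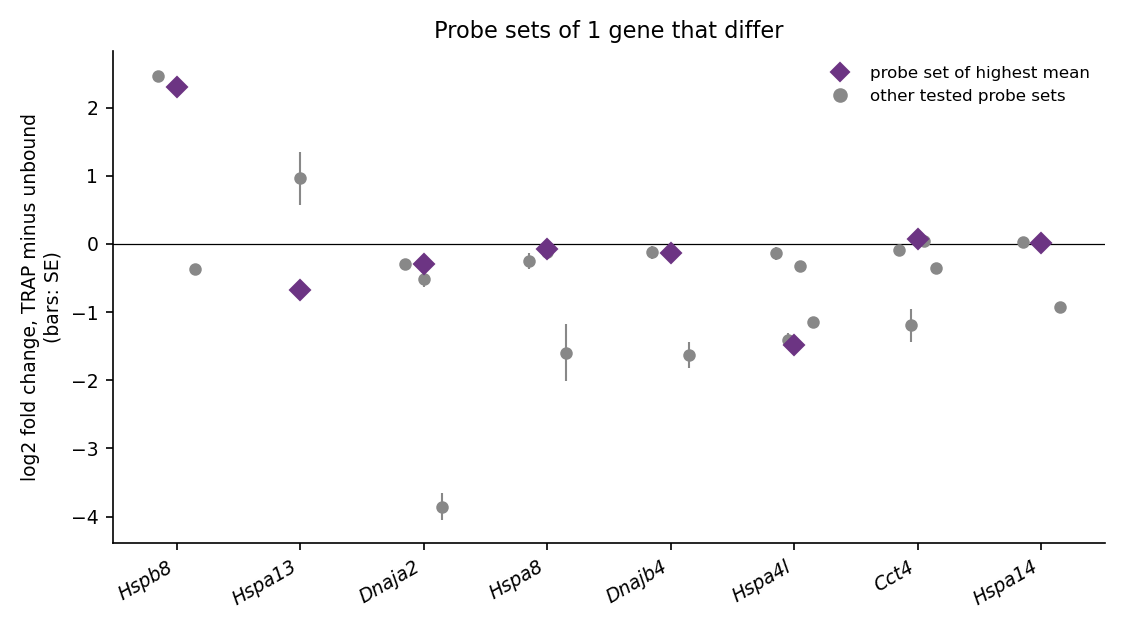
Log2 fold change, TRAP minus unbound, of each tested probe set of the 8 member genes with the widest spread as measured, with no floor at 50, with SE bars. Diamonds mark the probe set of highest mean and grey points the others, which for Dnaja2, Hspa8, Dnajb4 and Cct4 include 1 far below it.

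Genes that work with the members were read from lists of 71 names, of which 68 had a probe set of a single symbol and 66 were tested. In TRAP RNA 18 were higher and 17 lower, 27.3% and 25.8%, against 23.1% and 45.6% of all genes. Their median log2 fold change was 0.00 against -0.21 for all genes. Of 27 tested cytosolic co-chaperones and regulators, 9 were higher and 9 lower, 33.3% each. Bag3, the nucleotide exchange factor that binds Hspb8, read 443, 422 and 281 against 106, 131 and 148 (2.94-fold, adjusted p = 0.0025), and the groups did not overlap. Fkbp5, an Hsp90 co-chaperone induced by glucocorticoids, read 2518, 4366 and 3093 against 943, 1464 and 1574 (2.5-fold, adjusted p = 0.012).

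Of the 10 Cct partners 3 were higher and 2 lower, 30% and 20% against 23.1% and 45.6% of all genes. Of the 6 prefoldin subunits, which hand proteins to Cct, Pfdn1 and Pfdn6 were higher, Pfdn2 was lower, and Pfdn4, Pfdn5 and Vbp1 were not called. Pfdn1 read 3132, 2107 and 3517 against 1801, 1129.6 and 1415 and Pfdn2 2437, 2936 and 1783 against 4836, 4965 and 4779.6. The Pfdn1 call (adjusted p = 0.022) was lost without TRAP sample 1 or 3 or unbound sample 2 or 3 (0.066 to 0.074). Tcp1, a subunit of the Cct ring itself, fell by 0.48 on the log2 scale (adjusted p = 0.00027), a call lost after centring on array medians (-0.05, adjusted p = 0.42), while the 7 tested Cct genes lay between -0.28 and 0.08. The difference between Tcp1 and the others was not tested.

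Of 18 genes of ER folding and the unfolded protein response, 2 were higher and 5 lower. These are 11.1% and 27.8%, beside 23.1% and 45.6% of all genes. Serpinh1, the collagen chaperone Hsp47, read 308, 603 and 484 in TRAP RNA against 33.1, 98.4 and 87.0 in unbound RNA (6.82-fold, adjusted p = 0.0063). The tested meningeal fibroblast markers, Col1a2 among them, were also higher in TRAP RNA, as given above. Pdia4, a disulfide isomerase, was lower but under 50 in TRAP RNA (39.4, 40.5 and 42.8 against 61.4, 63.0 and 60.8). Of 10 mitochondrial folding genes 4 were higher and 1 lower, 40% and 10%. Timm44, which tethers mortalin to the import channel, read 436, 514 and 377 against 914, 1045 and 807 (2.09-fold lower, adjusted p = 0.0024). Pam16, which restrains the J protein of the same motor, read 11069, 11542 and 12003 against 8225, 6776 and 7326 (1.55-fold higher, adjusted p = 0.0016). Cryab, with no call, was the tested gene of the last list.

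Across the series, S100a10 was 5.86-fold higher in TRAP RNA. Pyramidal neuron markers were split, with 3 higher and 2 lower of 6 tested and summed intensities of 18175 to 19804 against 17697 to 19375. Between 17.9% and 21.6% of tested probe sets had exactly the same value on 2 given arrays of one group and 0% on arrays of different groups. Counting a repeat between any arrays of a group, 61 of the 144 tested members (42.4%) held one, against 53.6% of all probe sets tested. Repeats lower the spread that limma sees, so small adjusted p-values of those members may be too small.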

How the data were processed

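The deposited values are linear intensities made by the authors with GCRMA, per the submitters' processing notes. This method corrects background, normalises arrays and combines the probes of a probe set. Its version, and whether all 6 arrays were processed together, are not given in the sources used here. The table has 6 columns, 1 per sample, and 0 were left unused. Symbols came from the platform annotation (34945 of 45037 probe sets had 1), and promoter windows from RefSeq (GRCm38.p6).

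log2 intensities, with no pseudocount, were fitted with lmFit and eBayes of limma 3.58.1 (R 4.3.3, a group term alone, two-sided) on the 22591 probe sets with a group mean of at least 50 in 1 group or more, adjusted by Benjamini-Hochberg over all of them. Every adjusted p is from this test unless another is named. Treat tested against a 2-fold change. The test was tried on simulated data. The number of arrays limits the precision.

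Families, partner and marker lists, and the naming rule (the up to 4 called genes of largest change per family with groups apart, the brightest gene, the Cct genes and some listed genes, and the 2 largest called changes per partner list) were chosen with earlier results of these data known. Other genes named were picked after their values were seen. Same-numbered samples deviated together from their group means over the tested probe sets (r of 0.42, 0.45 and 0.37 for numbers 1, 2 and 3), so the replicate number was also fitted as a block. Alternatives covered scaling, filter, floor, repeated values, prior variance, probe set type and each sample left out.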

Additional observations from a re-analysis of the deposited data

How the results depend on the processing

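Under the alternatives the counts of member probe sets, 19 higher and 54 lower in TRAP RNA, became 79 and 16 after centring on array medians, 50 and 22 after centring on tested probe sets (added after seeing the data), 35 and 33 after quantile normalisation, 31 and 87 with no filter, 12 and 26 with 1 probe set per gene, 9 and 26 without repeated values, 5 and 5 against a 2-fold change, and 12 and 37 without _x_at, _s_at and _a_at types. Fewer probe sets enter with 1 per gene, without repeats and without those types. Leaving out 1 sample at a time gave 16 to 20 higher and 46 to 53 lower. Partner genes, 18 higher and 17 lower, became 38 and 5, 32 and 10, and 28 and 12 under the 3 scalings, 12 and 12 without repeated values, 11 and 12 without those probe set types, 0 and 0 against a 2-fold change by limma's treat (2 and 0 at an unadjusted p under 0.05), and 16 to 21 and 12 to 17 with 1 sample left out. Of the 66 tested member genes, 30 changed sign after centring on array medians (13 of them called on the deposited scale and 7 called both ways), 18 after centring on tested probe sets (4 and 1) and 7 after quantile normalisation (1 and 0). Among genes chosen by the naming rule and called on at least 1 of the scales, centring on array medians turned Hspa2 (0.11), Hspa8 (0.36), Hsph1 (0.091), Hsp90aa1 (0.31), Cct2 (0.35), Cct3 (0.16), Cct5 (0.31), Cct6a (0.43), Cct7 (0.24), Cct8 (0.30), Dnaja1 (0.090), Dnaja2 (0.15), Dnajb9 (0.091) and Dnajc5 (0.38). Centring on tested probe sets turned Hspa8 (0.19), Hsp90aa1 (0.14), Cct2 (0.18), Cct6a (0.26), Cct7 (0.067) and Dnajc5 (0.21). These shifts follow from the lower array medians of TRAP RNA and from the construction of each centring. With the replicate block 20 member probe sets were higher and 55 lower, and among member genes, each by its brightest probe set, the call changed for Cct7, Dnajb4, Dnajc3, Dnajc10 and Dnajc30 and for no other. Values near 50 have little signal over background, so folds of Hspb2, Hspa12b and the dim probe sets are imprecise.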

Other observations

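The order of the samples seen in ER chaperones was also read in the ER partner genes, a comparison chosen after their values were seen. Of 14 such genes without tied values, 6 had sample 1 lowest and sample 3 highest in both groups, against 6.15% of all 5963 genes without ties. They were Canx, Pdia6, Manf, Creld2, Sdf2l1 and Sel1l. Manf, a secreted ER stress protein, read 1879.6, 2074 and 2963 in TRAP samples 1, 2 and 3 and 1341, 1392 and 2004 in the unbound samples. Creld2 read 563, 756 and 878 against 478, 690.3 and 810.4. The stress transcription factor gene Ddit3 did not share the order, at 472, 519.9 and 492 against 745, 667 and 738. Nor did Calr, P4hb, Pdia3, Pdia4, Herpud1, Xbp1 and Serpinh1.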
